A study of Mus musculus with 4 samples.

Results

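The prolactin family genes described here are 10 genes that mouse decidua and placenta are known to express, out of 21993 genes in each of 4 RNA-sequencing libraries. They are Prl8a2 and Prl3c1, taken as decidual, and Prl6a1, Prl7a2, Prl3b1, Prl3d1, Prl7b1, Prl8a9, Prl4a1 and Prl2c2, taken as trophoblast genes. They were found by their symbols, and all 10 were listed in every library. Of the family's other genes, 16 were measured. The libraries are labelled as NK cells sorted from the uterus at gd11.5, a label for the gestational day, by absence of CD3 and presence of CD45 and NK1.1, from females mated with B6 males. Both groups carried homozygous floxed alleles (f/f), and 1 group also carried Cre driven from Ncr1, a gene of the NK-cell lineage. There were 2 libraries with Cre (Ncr1Cre) and 2 with the floxed alleles only (control). Whether libraries of 1 genotype came from different mice is not labelled. The p-values set the difference between genotypes only against how far libraries of a genotype lie apart, which may be technical. Levels are given in FPKM, which divides a gene's fragments by transcript length and by the mapped fragments of the library and so can be compared between genes.

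Rodents carry a large cluster of genes descended from the gene of the pituitary hormone prolactin, and most of them are active only during pregnancy. Some encode hormones that bind the prolactin receptor and signal through the kinase JAK2 and the transcription factor STAT5, while others act on other receptors or have no known receptor. Decidual cells, which are maternal stromal cells transformed in pregnancy, make a few of these hormones. Trophoblast giant cells, spongiotrophoblast and labyrinthine cells of the placenta make the rest.

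The labelled cell type was checked against its genes. Ncr1 stood at 0 and 0.152 FPKM with Cre and 0.136 and 0.359 without. Klrb1c, the gene of NK1.1, stood at 0.924 and 0.673 FPKM against 0.449 and 0.973, and Ptprc, the gene of CD45, at 4.39 and 5.16 against 2.89 and 2.57. The 12 NK-cell markers summed to 27.8 to 42.0 FPKM per library, and the 10 prolactin family genes to 259 to 824. Summed, the 10 genes were therefore more abundant than these NK-cell markers in every library. The decidual genes alone were not, at 23.1 and 25.9 FPKM in Ncr1Cre and 3.73 and 4.34 in control. The NK-cell markers summed to 42.0 and 41.9 FPKM in Ncr1Cre and 27.8 and 28.1 in control. The library totals of FPKM ranged from 384852 to 468192, and the 10 genes made 0.0674% to 0.176% of them. The 11 epithelial markers summed to 10205 to 52108 FPKM per library, mostly from Prap1, and the 10 fibroblast markers to 14591 to 33276. Steps in the low values gave estimates of 21040000 to 38540000 fragments per library, so that a single fragment on a transcript of 1 kb gave 0.0259 to 0.0475 FPKM.

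All 10 genes were higher in both Ncr1Cre libraries than in either control library. The ratio of the mean FPKM ran from 2.44 for Prl8a9 to 12.8 for Prl6a1. Of all genes with any value above 0, 42.0% showed the same lack of overlap in this direction, and of those averaging 1 FPKM or more, 46.4%. In the fit across all genes, limma called 48.5% of 11762 tested genes, 30.9% higher and 17.6% lower in Ncr1Cre. The balance of those calls depended on scaling, with 63.7% of calls higher as deposited, 46.7% after median rescaling, 41.2% with library sums made equal and 46.3% after quantile normalization. A gene was tested if its values averaged 1 FPKM or more across the 4 libraries, which 7 of the 10 reached, and each of the 7 also had a control mean above 1 FPKM. All 7 were called higher under every one of these scalings. Their median log2 fold change on the log2(FPKM + 1) scale was 1.35, against 0.11 over all tested genes. Whether more cells of a type were present or each held more RNA cannot be told apart in such bulk libraries.

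**Figure D1:**
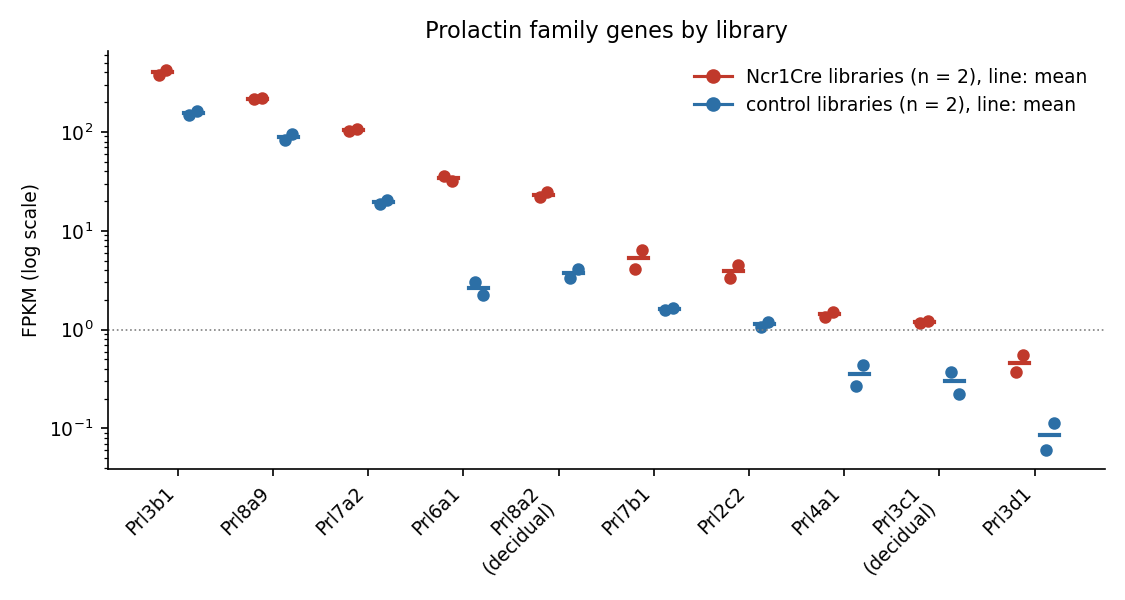
FPKM of the 10 prolactin family genes on a log axis, ordered by their Ncr1Cre mean, with 1 point per library, a line at each genotype's mean and a dotted line at 1 FPKM. For each gene both Ncr1Cre points lie above both control points, and the levels run from Prl3b1 (401 FPKM in Ncr1Cre) to Prl3d1 (0.460).

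Of the decidual hormones, Prl8a2 was the more abundant, and Prl3c1 was low in all libraries and rested on few fragments in control. Prl8a2 encodes decidual prolactin-related protein, a heparin-binding hormone that decidual cells secrete into their matrix. It stood at 21.9 and 24.7 FPKM in Ncr1Cre against 3.35 and 4.12 in control. The genotypes lay 6.24-fold apart in their means and did not overlap (log2 fold change 2.36, SE 0.12, adjusted p = 0.000273). Prl3c1, known as prolactin-like protein J and expressed in early decidua, was listed at 1.17 and 1.23 FPKM against 0.377 and 0.222. At the estimated totals the control values rest on 12.3 and 3.97 fragments, and the Ncr1Cre values on 25.9 and 23.7. Prl3c1 was below the mean needed for the test. With no filter on low values its log2 fold change was 0.76 (SE 0.09, adjusted p = 0.00622), in a fit that called 34.1% of 17500 genes, 22.6% higher. Prl8a2 exceeded Prl3c1 18.7-fold and 20.1-fold in Ncr1Cre and 8.89-fold and 18.5-fold in the control libraries, so the ratio of control replicate 1 stood apart from the other 3.

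The placental lactogens, which are ligands of the prolactin receptor, were at opposite ends of the range. Prl3b1 encodes placental lactogen II, the lactogen that trophoblast makes in the second part of gestation. It was the most abundant of the 10, at 376 and 426 FPKM in Ncr1Cre and 149 and 164 in the control libraries. Its log2 fold change was 1.35 (SE 0.09, adjusted p = 0.000504), a ratio of means of 2.57. Prl3d1 encodes placental lactogen I, which parietal giant cells make earlier, before placental lactogen II replaces it. It was listed at 0.369 and 0.552 FPKM against 0.0612 and 0.112, on 8.36 and 10.9 fragments in Ncr1Cre and 2.06 in each control library. The unfiltered fit gave it a log2 fold change of 0.42 (SE 0.08, adjusted p = 0.0196), which on this scale understates the change of so low a gene. Prl3b1 stood at least 772 times above Prl3d1 in Ncr1Cre and at least 1460 times in control. The sequence of Prl3d1 is shared with its copies Prl3d2 and Prl3d3, which were both listed at 0 in all 4 libraries. Of its 50-base words, 57.1% occur in transcripts of other genes and 40.5% in Prl3d3, so reads may have been assigned among the 3.

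Prl6a1, Prl7a2 and Prl8a9, hormones of spongiotrophoblast, differed from each other in the size of their change. Prl6a1, known as prolactin-like protein B and made by decidua as well as trophoblast, rose most. It stood at 35.6 and 32.1 FPKM in Ncr1Cre against 3.04 and 2.26 in control (log2 fold change 3.26, SE 0.13, adjusted p = 0.000193). Prl7a2, known as prolactin-like protein F, is related to a hormone that stimulates megakaryocytes. It rose from 18.5 and 20.3 FPKM to 101 and 108 (log2 fold change 2.38, SE 0.08, adjusted p = 0.000145). Prl8a9, of the prolactin-like protein C group, rose from 82.5 and 95.9 to 216 and 218 FPKM (log2 fold change 1.28, SE 0.09, adjusted p = 0.000536). Its replicates in Ncr1Cre lay closer together than those in the control. None of the 50-base words of Prl7a2 or Prl8a9 occurred in another gene, while 9.96% of those of Prl6a1 occurred in Gm11357, a pseudogene.

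Prl2c2, Prl7b1 and Prl4a1 had lower means than Prl6a1, Prl7a2 and Prl8a9 in Ncr1Cre and in control. Prl2c2 encodes a proliferin, a hormone of giant cells that stimulates growth of blood vessels. It stood at 3.36 and 4.49 FPKM in Ncr1Cre against 1.08 and 1.19 in control (log2 fold change 1.20, SE 0.15, adjusted p = 0.00269). Of its 50-base words, 89.5% occur in other genes and 80.1% in Prl2c3, so its value cannot be separated from that of the copies. Prl7b1, a gene of trophoblast known as prolactin-like protein N, was at 4.13 and 6.37 FPKM against 1.59 and 1.65 (log2 fold change 1.23, SE 0.19, adjusted p = 0.00576). Its 2 Ncr1Cre libraries differed more than the controls did, and both lay above them. Prl4a1, known as prolactin-like protein A, is a giant-cell hormone that binds NK cells in the rat. It was listed at 1.35 and 1.50 FPKM against 0.270 and 0.440, on 30.8 and 29.7 fragments in Ncr1Cre and 9.10 and 8.11 in control. It was below the filter, and the unfiltered fit gave a log2 fold change of 0.84 (SE 0.10, adjusted p = 0.00636). That fit called all 10 genes higher, but the 3 below the filter rest on few fragments.

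The order of the levels was nearly the same in both genotypes. In the Ncr1Cre libraries it ran from Prl3b1 through Prl8a9, Prl7a2, Prl6a1, Prl8a2, Prl7b1, Prl2c2, Prl4a1 and Prl3c1 to Prl3d1. Of these neighbours, Prl7b1 and Prl2c2 overlapped between replicates and the others did not. In the control libraries Prl8a2 stood above Prl6a1, and the rest of the order was the same. There the neighbours that overlapped were Prl4a1 and Prl3c1. The ratio of Prl6a1 to Prl8a2 was 1.63 and 1.30 in Ncr1Cre and 0.907 and 0.548 in the control libraries. This exchange of places concerns genes that are neighbours on the chromosome, one taken as trophoblast and the other as decidual.

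Trophoblast genes made up nearly all of the summed level of the 10 in both genotypes, with a larger decidual share in Ncr1Cre. The trophoblast genes summed to 738 and 798 FPKM in Ncr1Cre and 256 and 286 in the control libraries. The decidual genes summed to 23.1 and 25.9 against 3.73 and 4.34 FPKM. The trophoblast share was 97.0% and 96.9% in Ncr1Cre and 98.6% and 98.5% in control, so the genotypes did not overlap. Equally, the decidual share was 3.03% and 3.14% against 1.44% and 1.50%. With 2 libraries on each side the smallest exact permutation p is 0.333, so the share was not tested. The decidual sum rests almost entirely on Prl8a2. If Prl6a1 is counted as decidual, the mean trophoblast share is 92.6% in Ncr1Cre and 97.6% in control. Within the 10, Prl3b1, Prl8a9 and Prl7a2 made 91.1% and 91.4% of the sum in Ncr1Cre and 96.2% and 96.6% in control. The share of Prl7a2 was 13.3% and 13.1% against 7.12% and 6.99%, and that of Prl3b1 was 49.4% and 51.8% against 57.3% and 56.5%.

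Promoters among the 10 genes are shown because they share a feature that was not used to choose them and that is common in the family. RefSeq promoters, from 250 bases before to 50 bases after the annotated start on build GRCm38.p6, were found for 7 of the 10 genes. Capitals mark matches to the motifs searched, and overlapping matches run together. The first is TATATA, searched on the gene's strand. The AP-1 motif is TGANTCA and was searched on both strands. The GATA motif is AGATAA and was also searched on both strands, so that it can appear as its reverse complement. The sequences read 5′ to 3′ on the gene's strand. They are the decidual Prl3c1 at its upstream start (chr13:27196410-27196709, plus strand), Prl6a1 at its upstream start, with the largest change (chr13:27312365-27312664, plus), Prl3b1, the most abundant (chr13:27242180-27242479, plus), Prl7a2 (chr13:27667987-27668286, minus), Prl8a9 (chr13:27564557-27564856, minus) and Prl3d1, the least abundant (chr13:27093939-27094238, plus).
Prl3c1: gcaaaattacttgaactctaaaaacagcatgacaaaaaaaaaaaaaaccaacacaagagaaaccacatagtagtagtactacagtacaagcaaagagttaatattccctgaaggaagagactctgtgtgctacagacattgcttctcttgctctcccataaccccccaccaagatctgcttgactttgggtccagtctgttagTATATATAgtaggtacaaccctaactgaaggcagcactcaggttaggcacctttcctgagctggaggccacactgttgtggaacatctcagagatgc
Prl6a1: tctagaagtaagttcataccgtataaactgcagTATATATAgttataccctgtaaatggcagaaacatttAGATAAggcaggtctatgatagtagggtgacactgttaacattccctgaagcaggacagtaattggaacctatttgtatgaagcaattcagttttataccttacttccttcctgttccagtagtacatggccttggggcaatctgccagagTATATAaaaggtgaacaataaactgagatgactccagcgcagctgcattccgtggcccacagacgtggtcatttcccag
Prl3b1: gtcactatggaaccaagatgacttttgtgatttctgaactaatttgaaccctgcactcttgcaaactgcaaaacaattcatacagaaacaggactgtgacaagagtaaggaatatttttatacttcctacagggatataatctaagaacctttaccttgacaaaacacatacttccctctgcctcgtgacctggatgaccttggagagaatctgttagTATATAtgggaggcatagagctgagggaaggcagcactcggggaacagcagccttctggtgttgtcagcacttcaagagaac
Prl7a2: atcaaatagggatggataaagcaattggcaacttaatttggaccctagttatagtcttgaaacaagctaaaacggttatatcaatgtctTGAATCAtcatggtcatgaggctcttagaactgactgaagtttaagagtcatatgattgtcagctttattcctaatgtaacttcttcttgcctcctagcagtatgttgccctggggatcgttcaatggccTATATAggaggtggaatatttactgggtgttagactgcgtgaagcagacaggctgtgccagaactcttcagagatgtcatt
Prl8a9: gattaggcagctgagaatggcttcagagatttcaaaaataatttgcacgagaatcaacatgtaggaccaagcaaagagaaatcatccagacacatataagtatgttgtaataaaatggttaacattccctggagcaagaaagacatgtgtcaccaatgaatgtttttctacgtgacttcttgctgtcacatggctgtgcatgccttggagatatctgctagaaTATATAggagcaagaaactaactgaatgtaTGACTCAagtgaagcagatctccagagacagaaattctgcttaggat
Prl3d1: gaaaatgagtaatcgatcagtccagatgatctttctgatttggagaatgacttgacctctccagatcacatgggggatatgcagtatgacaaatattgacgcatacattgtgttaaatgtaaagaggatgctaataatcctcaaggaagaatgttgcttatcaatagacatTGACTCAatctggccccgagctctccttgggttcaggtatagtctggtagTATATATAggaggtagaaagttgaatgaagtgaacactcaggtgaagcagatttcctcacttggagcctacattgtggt

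TATATA was found in 7 of the 7 promoters, in each with a match that began between 27 and 47 bases before the annotated start. Over 32851 promoters of this length in the table, 5.67% held it on the gene's strand. It was found in 20 of the 22 family genes in the table, which are related by descent and so are not independent. Among the 20 were Prl, Prl3d2 and Prl3d3, which were listed at 0 in all libraries, while Prl3a1 and Prl7c1 lacked it. The motif was thus not confined to genes with a measured level, and genes at 0 cannot show whether it goes with a rise. Prl3a1 was also the only tested family gene not called. A link between the motif and the change was not tested. The AP-1 motif was found in 3 of the 7 (Prl3d1, Prl7a2 and Prl8a9) and in 9 of the 22 family genes, against 7.81% of all promoters. The GATA motif was found in 2 of the 7 (Prl6a1 and Prl4a1) and in 9 of the 22, against 11.2% of all promoters. Factors that bind both motifs are known to act on the promoter of Prl3d1 in giant cells. Only AGATAA was searched, so other words that hold GATA were not counted. An example is ttatca, the reverse complement of TGATAA, in the printed promoter of Prl3d1. Of the strongly raised genes, Prl6a1 held a GATA motif but no AP-1 motif in this window, and Prl7a2 the reverse. These counts take the first start listed for each gene. A second annotated start of Prl3c1 had no TATATA and held a GATA motif.

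Most tested genes of the rest of the family were higher as well. Of 17 listed, 16 were measured and 9 were tested, and 8 of these were called higher and 0 lower, against 30.9% and 17.6% of all tested genes (median log2 fold change 1.62). Under each other scaling 7 of the 9 were called higher. Prl7d1, which encodes proliferin-related protein, an inhibitor of blood vessel growth, rose from 2.38 and 2.27 FPKM to 10.9 and 12.2 (log2 fold change 1.91, SE 0.10, adjusted p = 0.00029). Prl2b1 rose from 15.3 and 18.9 to 77.2 and 89.2 (2.22, SE 0.13, adjusted p = 0.000355). Prl8a8 rose from 30.3 and 39.2 to 101 and 115, Prl2a1 from 7.63 and 8.88 to 19.0 and 20.6, and Prl8a1 from 0.872 and 0.930 to 4.0 and 3.5. Prl8a1 averaged 0.901 FPKM in control and so was tested only because of its level in Ncr1Cre. The proliferin copies Prl2c3 (7.14 and 6.93 against 1.29 and 1.77 FPKM) and Prl2c5 (16.6 and 26.5 against 3.96 and 6.10) were called higher as well, with the reservation given for Prl2c2. Prl8a6 changed little, from 30.6 and 37.5 to 51.3 and 46.8 (log2 fold change 0.52, SE 0.12, adjusted p = 0.0191). That p became 0.0645 after median rescaling, 0.101 with equal library sums and 0.0777 after quantile normalization. It was also above the threshold without Ncr1Cre replicate 1 (0.0501) or without control replicate 1 (0.0554). Prl3a1 stood at 5.60 and 6.65 against 4.09 and 5.67, where the genotypes overlapped and the test was not passed (log2 fold change 0.29, SE 0.16, adjusted p = 0.210). The pituitary hormone gene Prl was listed at 0 in all 4 libraries.

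On chromosome 13 the measured family genes lie in 2 groups, the proliferin copies Prl2c3, Prl2c2 and Prl2c5 in one and the other 23 in a row from Prl to Prl5a1. Along that row the size of the change varied from gene to gene. Prl6a1 (log2 fold change 3.26) and Prl8a2 (2.36), which are direct neighbours, stood between Prl3a1 (0.29) on one side and Prl2b1 (2.22) and Prl8a6 (0.52) on the other. Prl8a8 (1.62), Prl8a9 (1.28), Prl8a1 (1.32) and Prl7b1 (1.23) followed, and then Prl7a2 (2.38) and Prl7d1 (1.91). Sox4, the nearest protein-coding gene beyond Prl5a1, stood at 31.0 and 22.1 FPKM against 37.9 and 31.6 and did not pass the test (log2 fold change -0.39, SE 0.18, adjusted p = 0.134).

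**Figure D2:**
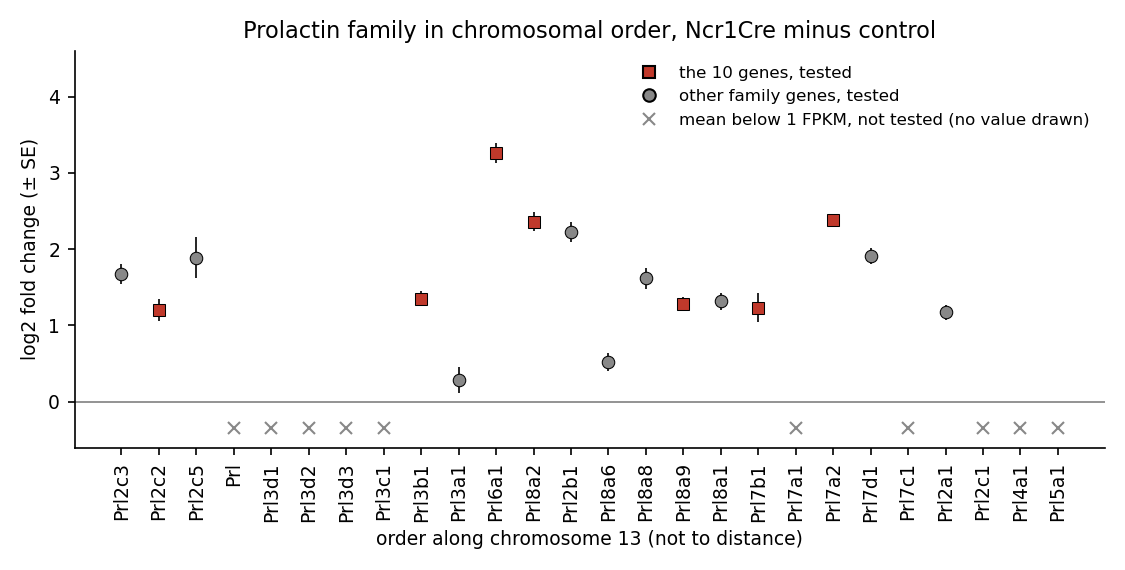
Log2 fold change (Ncr1Cre minus control, ± SE, on the log2(FPKM + 1) scale) of prolactin family genes in their order along chromosome 13, with squares for tested genes among the 10, circles for other tested family genes and crosses, which carry no value, for genes with a mean below 1 FPKM. Prl6a1 stands highest at 3.26 and Prl3a1 lowest at 0.29, with 1 gene between Prl3a1 and Prl8a2.

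Other trophoblast genes were higher in the same libraries. Of 20 trophoblast markers outside the family, 11 were tested and 10 were called higher and 0 lower, against 30.9% and 17.6% of all tested genes (median log2 fold change 1.60). Their sum was 1071 and 1268 FPKM in Ncr1Cre and 460 and 496 in the control libraries. Ctsj and Ctsq, cathepsins of the placenta, stood at 24.8 and 27.4 against 6.06 and 6.76 FPKM and at 8.38 and 9.19 against 1.90 and 1.64. Rhox9, a homeobox gene of trophoblast, stood at 16.2 and 16.8 against 4.65 and 4.94. Gcm1, Synb, Cts7 and Cts8 were listed at 0 in all 4 libraries. The part of a different amount of placental RNA in the changes of the prolactin family was not tested.

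Set against Tpbpa, a spongiotrophoblast gene chosen after its values were seen, the family members divided. Tpbpa stood at 452 and 517 FPKM in Ncr1Cre against 143 and 167 in control, a 3.13-fold difference of means. Prl6a1 was 7.88% and 6.21% of Tpbpa in Ncr1Cre and 2.13% and 1.35% in control. Prl8a2 was 4.84% and 4.77% against 2.35% and 2.47%, and Prl7a2 22.4% and 20.9% against 12.9% and 12.1%. These 3 genes were thus higher also relative to Tpbpa, without overlap. Prl3b1 was lower relative to it, at 83.1% and 82.4% against 104% and 98.3%, and so was Prl8a9, at 47.8% and 42.2% against 57.8% and 57.5%. Prl7b1, Prl2c2 and Prl3c1 overlapped between the genotypes. Prl4a1 and Prl3d1 were higher relative to Tpbpa without overlap, by ratios of means of 1.30 and 1.71. Their control values rest on few fragments, 9.10 and 8.11 for Prl4a1 and 2.06 in each library for Prl3d1, so this lack of overlap carries little weight. These ratios within a library show unequal change and were not tested. That Prl3b1 and Prl8a9 were lower depended on taking Tpbpa as the reference. Tpbpb, another of the trophoblast markers, had 360 and 420 FPKM in Ncr1Cre and 159 and 168 in control. Its means differed 2.39-fold, less than those of Prl3b1 (2.57-fold) and Prl8a9 (2.44-fold). The ratios of means of Prl6a1 (12.8), Prl8a2 (6.24) and Prl7a2 (5.40) were above those of Tpbpa and Tpbpb alike. Over the tested trophoblast markers outside the family the ratio ran from 1.42 (Psg21) to 4.97 (Ctsq), the latter near that of Prl7a2. Cdx2, below the filter, had a ratio of 9.98. How far Prl6a1, Prl8a2 and Prl7a2 stood above a trophoblast marker thus also depended on the reference.

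**Figure D3:**
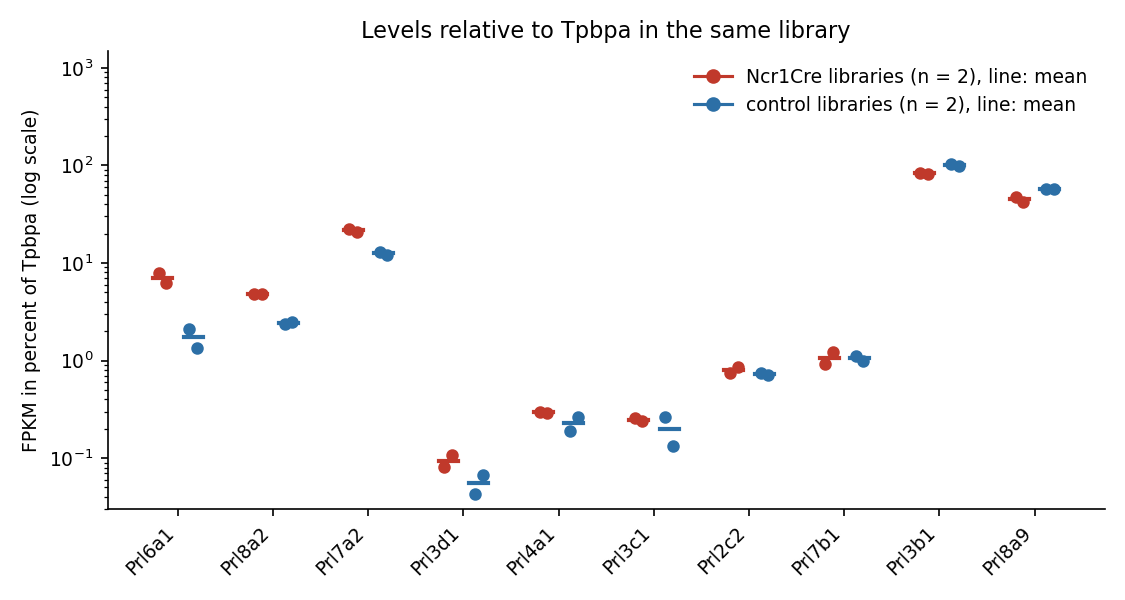
FPKM of the 10 genes in percent of Tpbpa in the same library, on a log axis, ordered by the ratio of the genotypes' means, with 1 point per library and a line at each genotype's mean. Prl6a1 (7.88% and 6.21% against 2.13% and 1.35%) is furthest apart on the left, and Prl3b1 and Prl8a9 on the right are lower in Ncr1Cre.

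Decidual Prl8a2 rose in libraries in which most decidual stroma markers were lower. Of 16 such markers 15 were tested, and 9 were called lower and 2 higher (median log2 fold change -0.59). Of all tested genes 17.6% were called lower and 30.9% higher, the shares to set beside each list here. The 16 decidual stroma markers summed to 1090 and 713 FPKM in Ncr1Cre and 1223 and 1058 in control, so the sums overlapped between the genotypes. Much of the gap between replicates was Cebpb, named after its values were seen, at 368 and 72.6 against 248 and 134, which was not called. Gja1, a gap-junction gene, stood at 55.6 and 54.3 FPKM in Ncr1Cre and at 109 and 106 in control, and Des, which encodes desmin, at 144 and 143 against 254 and 245. The 2 that were higher were Gjb2, the connexin 26 gene, which uterine epithelium and decidua both express, at 38.9 and 39.0 against 6.75 and 6.04, and Cryab, a small heat shock protein gene named after its values were seen, at 137 ± 29.5 against 61.3 ± 1.93 (mean ± SD, n = 2). All 10 fibroblast markers were called lower (median -1.18), among them Pdgfra at 39.0 and 40.4 against 113 and 114. Epithelial markers were higher, with 10 of 11 called higher (median 2.18), and Krt18 stood at 508 and 539 against 108 and 108 FPKM. The 4 tested globins were called higher, where 30.9% of all tested genes were. The embryonic globins Hbb-y, at 10.8 and 13.1 against 0.177 and 0.361, and Hba-x, at 3.46 in each Ncr1Cre library against 0 and 0.0596, were tested only because of their level in Ncr1Cre. Of 6 tested NK-cell markers 4 were called higher (median 0.51), and 3 after each of the other scalings. The part of any of these in the change of Prl8a2 was not tested.

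**Figure D4:**
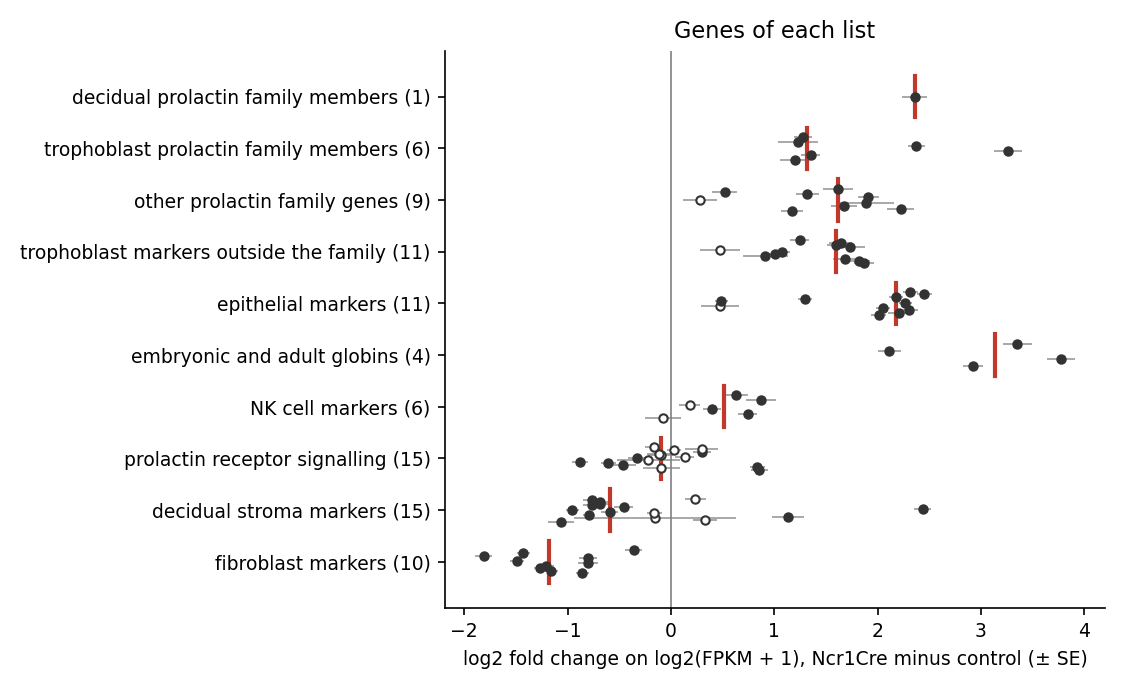
Log2 fold change (Ncr1Cre minus control, ± SE) of each tested gene by list, with the number tested in brackets, filled points for genes called at an adjusted p under 0.05, open points for the others and red lines at list medians. The prolactin family lists, the other trophoblast markers (median 1.60), epithelial markers (2.18) and globins lie to the right, and decidual stroma (-0.59) and fibroblast markers (-1.18) to the left.

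For Prl8a2 and Prl6a1 the tested genes with the closest pattern over the 4 libraries were sought. Closeness was the Euclidean distance of log2(FPKM + 1) values centred on each gene's mean, outside the family. For Prl8a2 the nearest were Tff1 (distance 0.095), Slc46a2 (0.135), Mmp7 (0.137), S100g (0.138) and Cfb (0.141). Tff1, a secreted peptide of mucous epithelia, stood at 41.9 and 45.7 FPKM against 6.50 and 7.93. For Prl6a1 they were Gatm (0.0972), Rnf39 (0.148), Pck1 (0.213), Pglyrp1 (0.243) and Akr1b7 (0.253). Gatm, an enzyme of creatine synthesis, stood at 35.0 and 33.8 FPKM against 3.09 and 2.50. None of these 10 genes was on any of the lists of cell markers. The 11 tested trophoblast markers had log2 fold changes of at most 1.87, below Prl8a2 (2.36) and Prl6a1 (3.26). Their absence here follows from the size of the change. The 11 tested epithelial markers had log2 fold changes from 0.47 to 2.45, a range that holds Prl8a2 but not Prl6a1.

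Genes of the receptor pathway of the lactogens were called in both directions. Of 15 tested genes of prolactin receptor signalling, 3 were called higher, 4 lower and 8 not called, a share of calls near the 48.5% of all tested genes (median log2 fold change -0.10 against 0.11 over all). Under each other scaling 2 were called higher and 5 lower. Prlr, the receptor, stood at 3.11 and 2.87 FPKM in Ncr1Cre and at 4.91 and 4.09 in control (log2 fold change -0.46, SE 0.12, adjusted p = 0.0275). That call was lost, at 0.0543 with no filter, 0.0799 without Ncr1Cre replicate 2 and 0.129 without control replicate 1. Jak2, the kinase of the receptor, rose from 14.2 and 14.8 to 26.6 and 26.6 FPKM (log2 fold change 0.83, SE 0.07, adjusted p = 0.000981). Cish, a feedback inhibitor that STAT5 induces, rose from 8.04 and 7.45 to 14.7 and 14.9 (0.85, SE 0.08, adjusted p = 0.00138). The adaptor gene Shc1 fell from 56.2 and 52.4 to 30.1 and 28.0 (-0.88, SE 0.08, adjusted p = 0.00103). Socs2 (log2 fold change -0.33) and Ptpn11 (-0.61), named after their values were seen, were also called lower. Socs2 lost its call without Ncr1Cre replicate 1 (0.111), control replicate 1 (0.0545) or control replicate 2 (0.120). The STAT5 genes themselves did not pass, with Stat5a at 10.4 and 9.63 against 9.35 and 6.78 FPKM and Stat5b at 9.08 and 9.13 against 10.8 and 9.90.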

How the data were processed

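The authors deposited 1 file per library with FPKM per gene, for which the submitters' processing notes name Cufflinks and build mm9. Its version, the aligner, the annotation and how reads with several matches were assigned: not given in the sources used here. FPKM are not counts, so no count test was run. The floxed gene and 1 listed gene are not reported here.

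limma 3.58.1 in R 4.3.3 was fitted on log2(FPKM + 1), Ncr1Cre minus control, with an intensity trend, on the 11762 genes that averaged 1 FPKM or more. P-values were two-sided and Benjamini-Hochberg adjusted over all tested genes, with calls at an adjusted p under 0.05. Changes on this scale understate those of low genes. Groups came from the labelled genotypes. The 10 genes, the lists and the named genes (the family and the 3 smallest p-values of each other list) were chosen with earlier results of these data known.

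Totals of fragments were estimated as the total that made the largest share of low values of single-transcript genes whole, within 0.02 fragments. Where the halved total kept most of that share, it was taken instead. Between 35.7% and 42.6% came out whole, so the totals are approximate. Shared 50-base words were counted in GENCODE M21 transcripts on GRCm38, a newer build than mm9. Promoters came from RefSeq on GRCm38.p6, and 22 of the 27 family genes had one. The alternatives were another pseudocount, filter, scaling, trend and block, and leaving out each library. Replicates shared no identical value above 1 FPKM.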

Additional observations from a re-analysis of the deposited data

How the results depend on the processing

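All 7 tested genes of the 10 stayed called higher under a pseudocount of 0.1, median rescaling, equal library sums, quantile normalization, no intensity trend, the replicate block and without each library, where the lone library is assumed to vary like the others. Where genes had to average 5 FPKM, 5 were tested and called higher, as were 2536 of all 7516 genes tested there. Of these, Prl8a2 and Prl6a1 averaged 3.73 and 2.65 FPKM in control and so passed this filter only because of their level in Ncr1Cre. With no filter 10 of 10 were called higher, against 22.6% of all genes in that fit. The number of genes called over the whole table was 5709, between 4037 and 6004 with all libraries kept and 4092 to 5034 leaving out 1. The replicate numbers are shared only as numbers (correlation of replicate differences 0.16), and the fit with the replicate block gave 6004 calls, 7 of them among the 10. The mean trophoblast share was 96.9% in Ncr1Cre and 98.5% in control. It was 92.6% and 97.6% with Prl6a1 counted as decidual, and 95.7% and 97.8% with Prl2c2, Prl3d1 and Prl8a9 left out as possible close copies, although Prl8a9 proved to share no 50-base word with another gene. Leaving out 1 library gave 96.9% to 97.0% and 98.5% to 98.6%. A pseudocount of 0.1 raised the log2 difference of Prl3c1 from 0.76 to 1.73, of Prl4a1 from 0.84 to 1.77 and of Prl3d1 from 0.42 to 1.58, since these genes are below 1 FPKM in control. Scaling moved the median of all tested genes from 0.11 to -0.05 (median rescaling), -0.11 (equal library sums) and -0.05 (quantile normalization). Few fragments limit Prl3d1, Prl3c1 and Prl4a1.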

Other observations

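7 family genes outside the 10 had a mean below 1 FPKM and were not tested. Among them Prl7a1, known as prolactin-like protein E, which stimulates megakaryocytes, stood at 1.24 and 1.28 FPKM in Ncr1Cre against 0.169 and 0.198 in control, a 6.87-fold difference of means. Prl7a1 lies beside Prl7a2, which differed 5.40-fold. Prl5a1, at 0.734 and 0.749 FPKM against 0.365 and 0.764, overlapped between the genotypes. Prl2c1 (0.578 and 0.271 against 0.183 and 0.112) and Prl7c1 (0.114 and 0.36 against 0.0896 and 0.0940) rest on few fragments, with between 2.0 and 12.8 for Prl2c1 and between 2.01 and 8.28 for Prl7c1. Prl, Prl3d2 and Prl3d3 were listed at 0 throughout.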
